A study of Mus musculus with 6 samples.

Results

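Creatine kinases and the muscle or tissue isoforms of phosphofructokinase, enolase and lactate dehydrogenase were read in sorted bladder cells of newborn mice. The members were taken by symbol, as every probe set annotated with 1 gene symbol equal to Ckm, Ckb, Ckmt2, Pfkp, Pfkm, Pfkl, Eno1, Eno3, Ldha or Ldhb. Of these 10 genes, 9 had such a probe set, with 17 probe sets in all among 45037 on the array, and Eno1 was not analysed here. A filter on dim signal (mean log2 value over the 6 arrays beyond the lowest 40% of probe sets, at a signal of about 87.6) was passed by 14 of the 17 probe sets and by 8 of the 9 genes. Ckmt2 did not pass it.

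The arrays came from male FVB/N mice at postnatal day 2 that carried both SMGA/EGFP and SMAA/EYFP, reporters driven by the promoters of smooth muscle gamma actin and smooth muscle alpha actin. Digested bladder tissue was sorted by fluorescence into cells positive for EGFP and EYFP (double-positive, 3 arrays) and cells positive for EGFP but negative for EYFP (single-positive, 3 arrays), both labelled as detrusor, the muscle of the bladder wall. The labels state that samples were not pooled but do not say whether the 3 arrays of a group stand for different animals, so the p-values rest only on differences among these samples, and that spread may be technical. Each sort gate defines its population by 2 promoters and not by cell identity, so a population can hold more than 1 cell type, and in such samples fewer cells of a type and less RNA per cell cannot be told apart.

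Creatine kinases pass a phosphate group between ATP and creatine, so that phosphocreatine can restore ATP where it is spent quickly, as in contraction. Ckm is the cytosolic form of striated muscle, Ckb the cytosolic form of brain and smooth muscle, and Ckmt2 the mitochondrial form of striated muscle. Phosphofructokinase sets the pace of glycolysis, and its subunits come in muscle (Pfkm), liver (Pfkl) and platelet (Pfkp) forms. Enolase makes phosphoenolpyruvate near the end of glycolysis, and Eno3 is its muscle form. Lactate dehydrogenase interconverts pyruvate and lactate, with Ldha the form typical of glycolytic muscle and Ldhb the form typical of heart.

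The 4 members that fell (described next) are shown first by the 250 bases before an annotated start site, from RefSeq promoter windows of build GRCm38.p6. This lets the regulatory sequence of enzymes that moved in the same direction be compared. All 10 members were found in that table. The Ckm and Ckb windows adjoin the RefSeq span of the gene. Those of Eno3 (span chr11:70653125-70662513) and Pfkp (span chr13:6579874-6649060) lie inside it. Their start sites are thus internal ones, and sequence before the outer edge of these spans was not read. The sequences run 5′ to 3′ on the strand of the gene, and capitals mark matches to any of 5 motifs searched on both strands.
Ckm (chr7:19410844-19411093, plus strand): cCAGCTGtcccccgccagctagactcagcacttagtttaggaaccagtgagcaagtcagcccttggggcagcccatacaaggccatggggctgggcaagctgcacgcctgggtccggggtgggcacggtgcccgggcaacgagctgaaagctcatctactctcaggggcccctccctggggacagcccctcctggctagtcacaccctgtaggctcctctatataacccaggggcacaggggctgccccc
Ckb (chr12:111672339-111672588, minus strand): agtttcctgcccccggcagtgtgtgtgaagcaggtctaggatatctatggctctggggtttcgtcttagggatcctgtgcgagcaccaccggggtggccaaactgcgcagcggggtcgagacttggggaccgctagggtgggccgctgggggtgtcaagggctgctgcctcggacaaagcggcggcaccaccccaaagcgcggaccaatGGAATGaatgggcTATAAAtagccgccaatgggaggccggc
Pfkp (chr13:6648772-6649021, minus strand): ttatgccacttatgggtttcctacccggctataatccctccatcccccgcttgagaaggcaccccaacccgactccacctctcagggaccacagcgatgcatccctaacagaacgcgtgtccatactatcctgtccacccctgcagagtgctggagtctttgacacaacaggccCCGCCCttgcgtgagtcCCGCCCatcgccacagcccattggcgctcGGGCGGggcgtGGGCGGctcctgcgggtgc
Eno3 (chr11:70656926-70657175, plus strand): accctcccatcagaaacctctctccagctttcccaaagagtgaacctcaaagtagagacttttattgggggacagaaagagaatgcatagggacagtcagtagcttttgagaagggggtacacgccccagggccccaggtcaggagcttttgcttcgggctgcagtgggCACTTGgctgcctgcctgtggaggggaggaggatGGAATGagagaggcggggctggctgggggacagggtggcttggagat
The motifs were the E-box (CANNTG), the TATA box (TATAAA), the CArG box, the MCAT motif (CATTCC) and the GC box (GGGCGG). The E-box match in Ckm began 249 bases before the start site, at the far edge of the window. That in Eno3 began 81 bases before its internal start site. The same motif occurs in 66.2% of the 32851 promoter windows of that table. Ckb had a TATA box 28 bases before its start site, which 12.4% of windows hold anywhere. It also had an MCAT motif at 41 bases, which 12.6% hold. Only the exact letters TATAAA counted as a TATA box, so near forms such as TATATAA in the Ckm window are unmarked. Eno3 had an MCAT motif at 47 bases. Pfkp had 4 GC boxes, at 76, 59, 30 and 19 bases, where 32.7% of windows hold at least 1. The CArG box, the site of serum response factor and present in 1.47% of windows, was matched in none of the 4 windows. Thus no motif of the 5 was shared by all 4 windows, and the matches did not overlap each other.

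Ckm, Ckb, Pfkp and Eno3 fell in double-positive cells, and no member rose. In the fit over 13464 genes (limma, Benjamini-Hochberg adjusted p under 0.05), 4 of the 8 tested members were lower, where 4.38% of all tested genes were lower, 1.98% were higher and 6.37% passed in either direction. Over 27022 probe sets, 3 of the 14 tested member probe sets were lower, 1 each for Ckm, Ckb and Pfkp, where 2.42% of all tested probe sets were lower, 1.01% higher and 3.42% either. For 5 of the 8 genes the highest double-positive value was under the lowest single-positive value, as in 11.9% of tested genes (22.4% had no overlap in either direction), and the same held for 10.1% of probe sets. The median log2 fold change was -0.96 over the 8 tested members and 0.021 over all tested genes. A negative fold change means less signal in double-positive cells, and all were taken on the scale log2(signal + 25.0), which understates the change of dim genes, and signals are in arbitrary units.

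**Figure D1:**
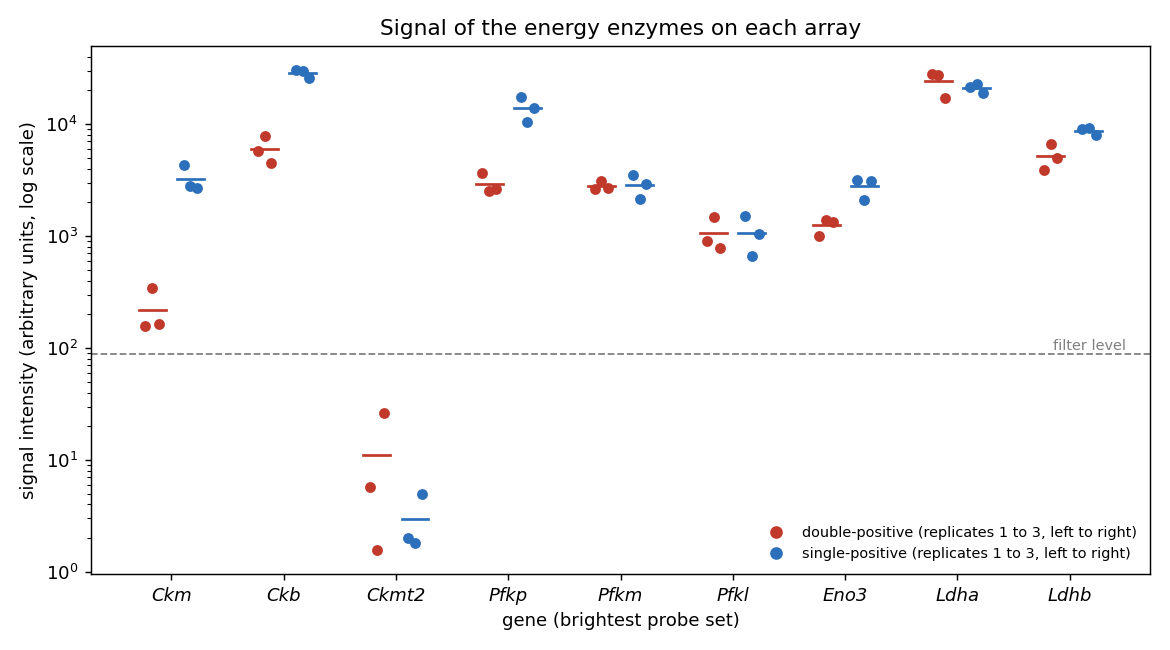
Signal intensity (arbitrary units, log scale) of the brightest probe set of each of the 9 enzymes on every array, with double-positive arrays to the left of single-positive arrays, 1 point per array and a bar at the group mean. Ckm, Ckb, Pfkp, Eno3 and Ldhb show no overlap between groups, and Ckmt2 lies below the level of the filter (dashed line) on all 6 arrays.

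Ckm had the largest fold change of the 8 tested members. Its signal on probe set 1417614_at was 156, 341 and 164 in double-positive arrays, against 4272, 2801 and 2709 in single-positive arrays. The lowest single-positive value was far above the highest double-positive value, with means of 220.4 ± 104 for the double-positive arrays and 3261 ± 877 for the single-positive ones (SD, n = 3 each). Limma gave a log2 fold change of -3.79 with an SE of 0.39 and an adjusted p of 0.000478. A second Ckm probe set, 1444643_at, did not show this. It had 179.9, 224 and 120.2 in double-positive arrays, against 265, 121 and 171 in single-positive arrays. These values overlapped, with a log2 fold change of -0.056 and a 95% interval of -1.07 to 0.95 (limma adjusted p = 0.980). Averaged over both probe sets Ckm had a log2 fold change of -1.92 and still passed (limma adjusted p = 0.0149). The cause of the disagreement was not tested.

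Ckb, measured by 1 probe set (1455106_a_at), had a signal of 5802, 7879.8 and 4461 in double-positive arrays, against 30477, 29659 and 25939 in single-positive arrays. The groups stood well apart, with means of 6048 ± 1723 for the double-positive arrays and 28692 ± 2418 for the single-positive ones (SD, n = 3 each). Limma gave -2.28 on the log2 scale with an SE of 0.22 and an adjusted p of 0.000392. Ckmt2, the mitochondrial enzyme, had a signal of 5.76, 1.56 and 26.15 in double-positive arrays and of 2, 1.81 and 5.01 in single-positive arrays, below the filter throughout, and was not tested.

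Of the phosphofructokinase subunits, the platelet form changed and the others did not pass the test. Pfkp (1416069_at) had a signal of 3644, 2537 and 2657 in double-positive arrays, against 17343, 10481 and 14035 in single-positive arrays. No values overlapped, the means were 2946 ± 608 for the double-positive arrays and 13953 ± 3432 for the single-positive ones (SD, n = 3 each), and limma gave a log2 fold change of -2.22 with an SE of 0.25 and an adjusted p of 0.000743. The other Pfkp probe sets, 1437759_at and 1430634_a_at, were too dim to be tested. The first averaged 39.8 in double-positive arrays, against 125 in single-positive arrays, and the second averaged 15.9 in double-positive arrays, against 69.3 in single-positive arrays, with the double-positive values the lower ones on both.

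Pfkm, the muscle subunit, had a signal of 2656, 3131 and 2674 in double-positive arrays, against 3507, 2127 and 2922 in single-positive arrays. The double-positive values lay inside the single-positive range. The log2 fold change was 0.0092 with a 95% interval of -0.59 to 0.61 (limma adjusted p = 0.992), so that a change of Pfkm of the size seen for Pfkp lies outside the interval. Pfkl, the liver subunit, had 911, 1474 and 779 in double-positive arrays, against 1509, 661 and 1034 in single-positive arrays on its brightest probe set (1439148_a_at). These values overlapped too, with a log2 fold change of 0.0054 and a 95% interval of -0.87 to 0.88. The remaining Pfkl probe sets, 1450269_a_at and 1453541_at, had log2 fold changes of -0.15 and 0.012 and did not pass.

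Eno3, the muscle enolase (1417951_at), had a signal of 999.7, 1399 and 1329.7 in double-positive arrays, against 3151, 2119 and 3133 in single-positive arrays. The groups did not overlap, and averaged 1243 ± 213 for the double-positive arrays and 2801 ± 591 for the single-positive ones (SD, n = 3 each). Limma gave -1.15 on the log2 scale with an SE of 0.30 and an adjusted p of 0.0470, just past the threshold. Adjusted over all probe sets it missed (limma adjusted p = 0.0775). It also missed when any 1 of the 6 arrays was left out, with limma adjusted p between 0.0522 and 0.189 and log2 fold changes between -1.34 and -1.0.

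Neither lactate dehydrogenase gene passed. Ldha (1419737_a_at) had a signal of 27839.5, 27499 and 17133 in double-positive arrays, against 21568, 22887 and 19154 in single-positive arrays. The double-positive arrays held both the highest and the lowest value, and the log2 fold change was 0.16 (95% interval -0.30 to 0.61, limma adjusted p = 0.785). Ldhb had 3899, 6699 and 4935 in double-positive arrays, against 8958, 9186 and 7979.7 in single-positive arrays on its brightest probe set (1455235_x_at). Here all double-positive values were the lower ones, double-positive array 1 lowest, with a log2 fold change of -0.78 (95% interval -1.31 to -0.25, limma adjusted p = 0.0929). The other Ldhb probe sets, 1416183_a_at, 1434499_a_at and 1448237_x_at, had -0.68, -0.66 and -0.68. They are assigned to the same gene and are not replicates of the comparison. Without double-positive array 1 the Ldhb value was -0.38 on probe set 1434499_a_at, then the brightest (-0.59 on 1455235_x_at), and without double-positive array 2 it was -0.98 and passed (limma adjusted p = 0.0354).

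**Figure D2:**
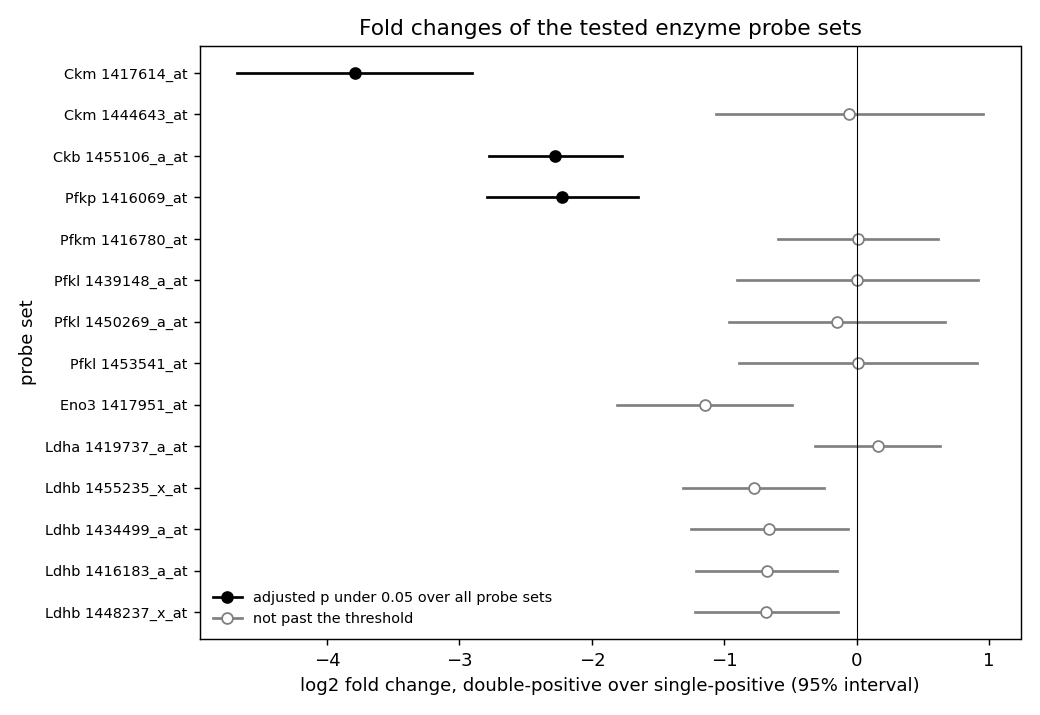
Log2 fold change (double-positive over single-positive) with its 95% interval for the 14 tested probe sets of the enzymes. Filled points passed the threshold of 0.05 adjusted over all 27022 tested probe sets (1417614_at of Ckm, 1455106_a_at of Ckb and 1416069_at of Pfkp), and open points did not.

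Whether isoforms of 1 enzyme changed unequally was tested within arrays. There the scaling of an array cancels for bright signals, but not fully for dim ones, because of the added offset. For each array the log2 value of one isoform was subtracted from that of another, and the groups were compared by an exact two-sided permutation test. With 3 arrays against 3 the smallest p is 0.1, so that no pair could pass 0.05. Of 8 planned pairs 5 could be made, since Eno1 and Ckmt2 gave no tested value. A ratio between probe sets is not a ratio of transcripts, and only its shift between groups is read.

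The log2 ratio of Pfkm to Pfkp was -0.048 ± 0.38 for the double-positive arrays and -2.28 ± 0.023 for the single-positive ones (SD, n = 3 each). Its shift of 2.23 had the smallest p possible (exact permutation p = 0.1, adjusted p = 0.125 over 5 pairs). The log2 ratio of Pfkp to Pfkl shifted by -2.23 with the same p, while that of Pfkm to Pfkl shifted by 0.0039 (exact permutation p = 1). Among the creatine kinases the log2 ratio of Ckm to Ckb was -4.67 ± 0.30 for the double-positive arrays and -3.16 ± 0.29 for the single-positive ones, a shift of -1.51 without overlap (exact permutation p = 0.1, n = 3 each). With probe sets averaged this shift was 0.35, of opposite sign, since the second Ckm probe set then entered. The log2 ratio of Ldhb to Ldha was -2.22 ± 0.54 for the double-positive arrays and -1.28 ± 0.030 for the single-positive ones, a shift of -0.94 (exact permutation p = 0.1, n = 3 each), and of -0.42 without double-positive array 1, where Ldhb was also read from another probe set (1434499_a_at).

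**Figure D3:**
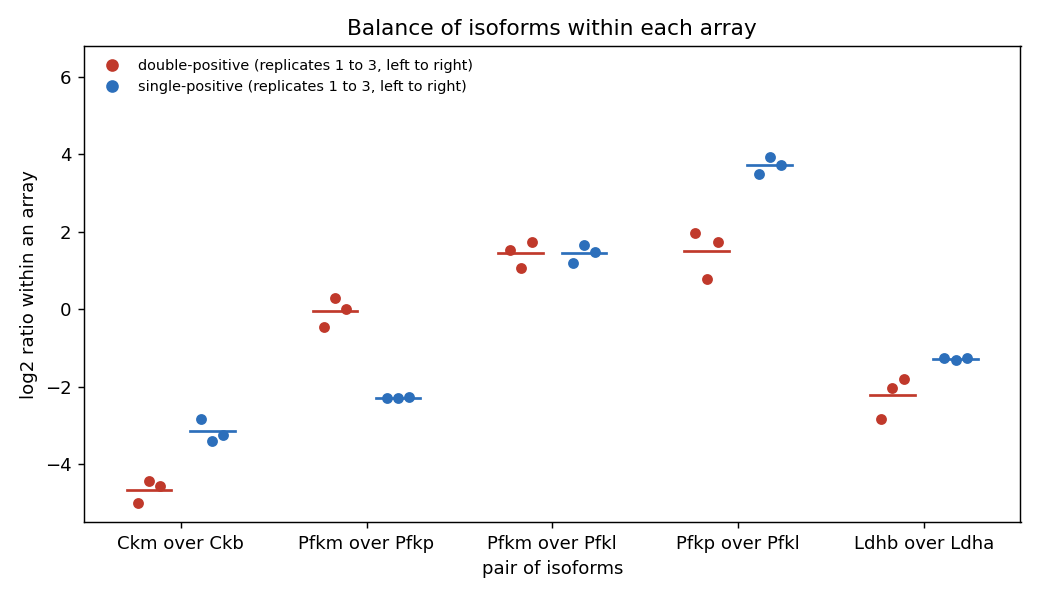
Log2 ratio of isoform signals within each array for 5 pairs, with double-positive arrays to the left of single-positive arrays, 1 point per array and a bar at the group mean. The groups do not overlap for 4 of the pairs, and for Pfkm over Pfkl they do.

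Other genes of energy supply were read in 4 lists, of which 49 genes were tested. Of these 8 fell and none rose at an adjusted p of 0.05 (16.3%, beside 4.38% of all tested genes), 41 did not pass, and the median log2 fold change was -0.17, against 0.021 over all genes. Leaving out any 1 of the single-positive arrays left 4 called, and leaving out double-positive array 2 left 5, with Hk2 then called higher. Ak4, Pygb and Slc2a4 were lower in all 17 alternatives run.

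In the list of creatine and adenylate genes, 2 of 8 fell (25%, beside 4.38% of all tested genes), none rose and 6 did not pass. Ak4, a mitochondrial adenylate kinase, had a signal of 662, 391.8 and 618 in double-positive arrays, against 1995, 2219 and 2949 in single-positive arrays (log2 fold change -2.07, SE 0.33, limma adjusted p = 0.00464). That probe set is marked as shared between transcripts, and the unshared ones, 1421830_at and 1421829_at, had -1.67 and -0.13 and did not pass in the fit over all probe sets, while Ak4 was called lower in the gene fit restricted to unshared probe sets. Ak5, a cytosolic adenylate kinase, had -1.58 (SE 0.38), was called in 8 of the 17 alternatives, and its other probe set did not pass. Gatm, which makes the first intermediate of creatine, had -1.47 and did not pass (limma adjusted p = 0.188). Slc6a8, the creatine transporter, had -0.062 and Gamt, which completes creatine, had 0.22.

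In the list of glycolysis, glucose entry and lactate export, 2 of 23 fell (8.7%, beside 4.38% of all tested genes), none rose and 21 did not pass. Slc2a4, the insulin-regulated glucose transporter of muscle and fat, had a signal of 80.3, 501 and 266 in double-positive arrays, against 1980.3, 1586 and 1594 in single-positive arrays. The lowest of these came from double-positive array 1, and limma gave -2.78 on the log2 scale with an SE of 0.53 and an adjusted p of 0.0118, with -0.93 on a dimmer probe set that did not pass. Hk3, a hexokinase of blood cells, had -2.25 (SE 0.34), on a probe set whose suffix warns of cross-hybridization, and its other probe set had -1.39 and did not pass. Hk3 missed the threshold without single-positive array 3. Slc16a1, a lactate transporter, had -0.75 and did not pass (limma adjusted p = 0.0869). Among the core enzymes that did not pass were Aldoa (-0.17), Pgk1 (-0.17), Pgam1 (0.034) and Pkm (-0.021). Hk2, the hexokinase of muscle, had 0.76, with all double-positive values above all single-positive values, and did not pass (limma adjusted p = 0.111).

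In the glycogen list, 3 of 14 fell (21.4%, beside 4.38% of all tested genes), none rose and 11 did not pass. Pygb, the brain form of glycogen phosphorylase, had a signal of 4262, 6302 and 5750.2 in double-positive arrays, against 19884, 13652 and 12594 in single-positive arrays (log2 fold change -1.49, SE 0.24, limma adjusted p = 0.0047). Ppp1r3c, a subunit that brings a phosphatase to glycogen, had -1.32 (SE 0.30) and was called in 12 of the 17 alternatives. Gyg, the primer of glycogen, had -0.74 (SE 0.18) on a shared probe set and -1.41 on an unshared one, which passed as well, and was called in 10 of the 17 alternatives. Pygm, the muscle form of the phosphorylase, had 0.20 and did not pass.

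In the list of energy genes typical of striated muscle, 4 of 9 genes with a probe set were bright enough to test. Pdk4, which restrains pyruvate oxidation, fell (log2 fold change -1.30, SE 0.33, limma adjusted p = 0.0440), but was called in 7 of the 17 alternatives. Fabp3, a fatty acid carrier of heart and muscle, had -1.30 and Cox6a2, a muscle subunit of cytochrome oxidase, had -0.43, and neither passed. Myoglobin (Mb), Ampd1, Cox7a1, Cox8b and Ppargc1a lay below the filter.

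**Figure D4:**
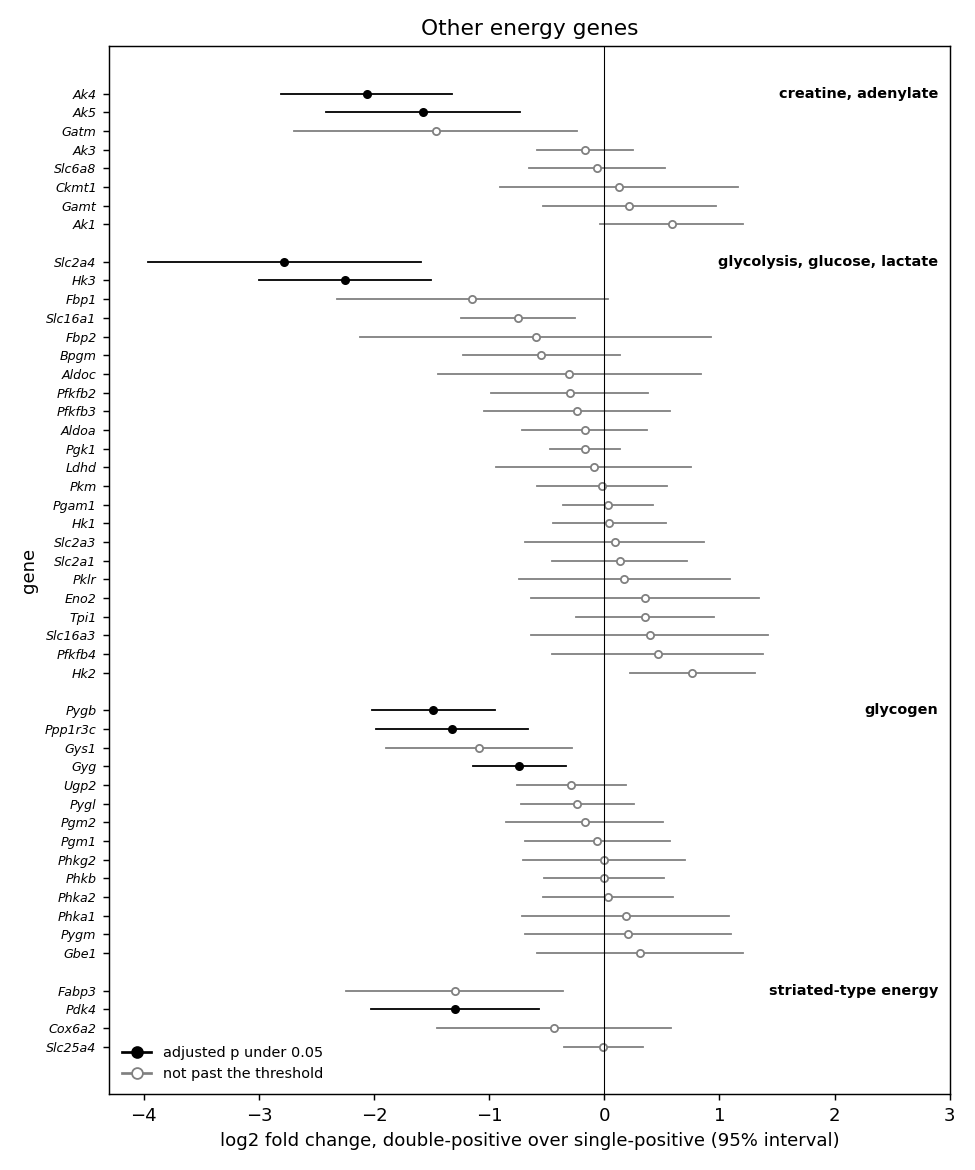
Log2 fold change (double-positive over single-positive) with its 95% interval for the 49 tested genes of the 4 energy lists, grouped by list. The 8 filled points passed an adjusted p of 0.05 over all genes, and all of them lie below 0.

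Most markers of smooth muscle and some of striated muscle were lower, as these enzymes were, where 4.38% of all tested genes were lower. Of 10 markers of contractile smooth muscle, 9 were lower in double-positive arrays and 1, Acta2, did not pass on its brightest probe set (it was lower with probe sets averaged), with summed signals of 105706 to 145689 for double-positive arrays, against 290594 to 374138 for single-positive arrays. Synm, Actg2 and Des had log2 fold changes of -4.54, -2.54 and -3.26, and Acta2 had -0.065 on its brightest probe set. That Acta2 probe set is marked as shared between transcripts, and Acta2 was called lower in the gene fit restricted to unshared probe sets. On a further probe set Synm had -5.44 and passed, while Des had -0.74 and did not pass. Acta2 and Actg2 encode the alpha and gamma actins whose promoters drive the reporters, so neither gene is independent of the sort gates. Both groups were EGFP positive, so the gates differ only in EYFP, which the alpha actin promoter drives. Of 21 tested markers of skeletal and heart muscle, 6 were lower and 15 did not pass, with summed signals of 3991 to 23575 for double-positive arrays, against 117249 to 133910 for single-positive arrays. The sums cover 23 genes, and Acta1, Actc1 and Tnnt2 made up most of the single-positive sum. Over the other 20 genes, a split chosen after seeing the data, the sums overlapped, at 2250.4 to 12863 for double-positive arrays and 10712 to 14945 for single-positive arrays. Of the 21 tested genes 16 had a fold change below 0 and 5 above 0. The 6 called were Acta1, Tnnt2 and Actc1, with log2 fold changes of -4.85, -4.36 and -4.54, and Tnnt3 (-2.39), Myh2 (-2.88) and Myh6 (-2.76). Myh6 averaged 28.4 in double-positive arrays, below the filter, and was not called with a 60th percentile filter.

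The genes of that list did not share 1 order over the arrays. Ckm was highest in single-positive array 1, as were 8 of the 23 striated genes within the single-positive group, among them Myh1 (2802, 588 and 1233), Myh2 (2188, 1572 and 1940.3) and Tnnc2 (2635, 1427 and 2045). In 13 of the 23 the same array was the lowest of its group, and in 15 double-positive array 1 was the lowest of its group. Myog, a transcription factor of skeletal muscle differentiation, had a signal of 38.4, 448 and 365 in double-positive arrays, against 34.8, 1405 and 985 in single-positive arrays. Myh3, embryonic skeletal myosin, had 31.0, 766 and 5788 in double-positive arrays, against 13.1, 2177 and 2898 in single-positive arrays. Both genes were thus lowest on the array numbered 1 of either group, and neither passed the test. On those same arrays Ckm had 156 in double-positive array 1, also the lowest of its group, and 4272 in single-positive array 1, the highest of its group. The part of striated muscle cells in the Ckm result was not tested. Myod1, another such factor, ranged from 18.9 to 154 in double-positive and from 60.3 to 412 in single-positive arrays.

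**Figure D5:**
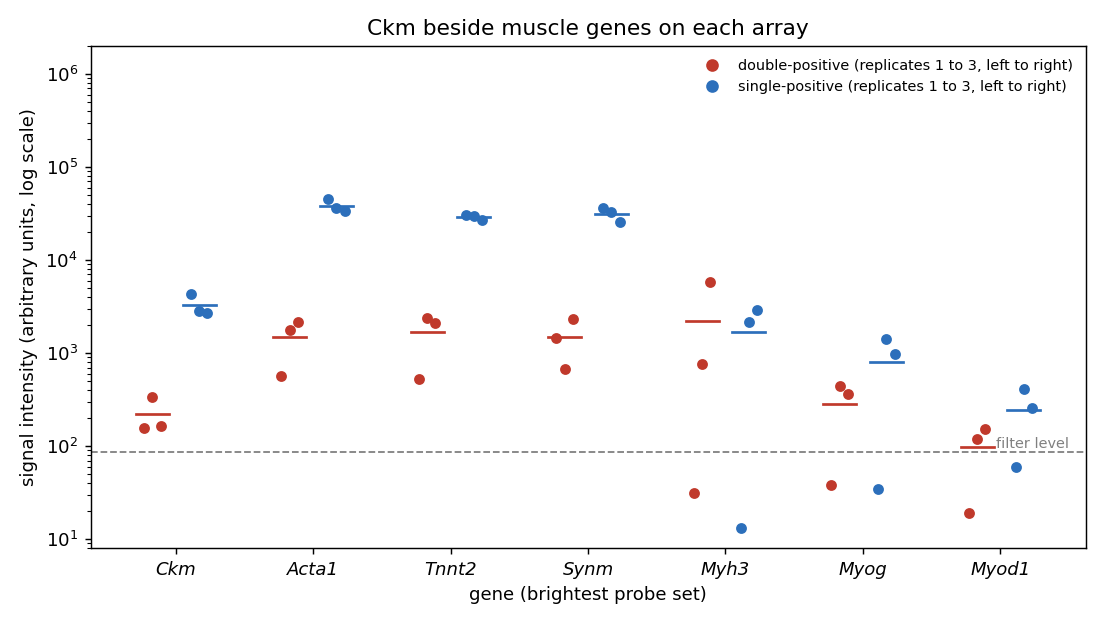
Signal intensity (arbitrary units, log scale) of Ckm and 6 muscle genes on every array, with double-positive arrays to the left of single-positive arrays, 1 point per array and a bar at the group mean. Ckm, Acta1, Tnnt2 and Synm separate the groups, while Myh3, Myog and Myod1 overlap and are lowest on replicate 1 of either group. The 6 genes are a selection, and Myh1, Myh2 and Tnnc2, highest on single-positive array 1 like Ckm, are not shown. Of the 23 striated genes, 8 were highest and 13 lowest on that array within its group.

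Many markers of other cell types were lower too, where 4.38% of all tested genes were lower. Their part in the fall of Ckb, Pfkp, Hk3 and the rest was not tested. All 10 leukocyte markers were lower, with summed signals of 11895 to 18969 for double-positive arrays, against 86611 to 122661 for single-positive arrays, and Mrc1, Laptm5 and Cd14 had log2 fold changes of -2.96, -3.07 and -2.66. The Laptm5 probe set has a suffix that warns of cross-hybridization. Its other tested probe sets had -2.11, -1.56, -0.52 and -0.24, and of these only that with -1.56 passed. Laptm5 was not called in the gene fit restricted to unshared probe sets. Of 11 urothelium markers 7 were lower, with sums of 5036 to 8116 for double-positive arrays, against 25979 to 42249.8 for single-positive arrays, and Perp, Krt15 and Upk1b had -3.60, -3.36 and -3.17. Of 8 tested nerve markers 4 were lower (Mbp, Erbb3, Snap25 and Uchl1, with -4.80, -4.33, -4.18 and -1.74; 2 without single-positive array 2 or 3), with sums over 9 genes of 3276 to 3930.3 for double-positive arrays, against 13786 to 15494 for single-positive arrays. Eno2, the neuronal enolase, stands in that list and in the glycolysis list, and it had 0.35 and did not pass. Of 8 endothelium markers 4 were lower (Lyve1, Cdh5, Sox17 and Kdr, with -3.30, -2.41, -3.99 and -1.67), with sums of 5481 to 8343 for double-positive arrays, against 30866 to 39776 for single-positive arrays. Sox17 had -0.70 on its other tested probe set, which did not pass, and was not called with unshared probe sets. Kdr was not called after quantile normalization, with no filter or with no variance trend. The double-positive means of Krt15 and Snap25 were 14.4 and 14.7, below the filter. None of the 3 red cell markers with a probe set (Hba-a1, Alas2 and Slc4a1) passed the filter, and their sums were 83.9 to 248 for double-positive arrays, against 36.9 to 223 for single-positive arrays.

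RNA was amplified in 2 rounds from the 3′ end, which can weaken probe sets far from that end. The control probe sets for Gapdh had a ratio of 3′ to 5′ signal of 17.2, 17.2 and 23.9 in double-positive arrays and of 15.2, 11.8 and 20.6 in single-positive arrays. For Actb this ratio was 4.66, 2.78 and 8.02 in double-positive arrays and 5.97, 5.46 and 3.23 in single-positive arrays. Both ratios overlapped between groups. The 3′ control for Gapdh, itself an enzyme of glycolysis, had a signal of 9771, 13219 and 8534 in double-positive arrays, against 16449, 10997 and 11114 in single-positive arrays, and these overlapped as well.

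For each enzyme that fell, the genes of most similar profile over the 6 arrays were taken by the smallest root mean square difference of centred log2 values among 12775 named genes. They were Popdc2 (0.18), Sgca (0.24) and Perp (0.32) for Ckm. For Ckb they were Ecscr (0.14), Fam189a2 (0.14) and Cdh5 (0.17). Tlr13 (0.17), Alox5ap (0.18) and Wscd2 (0.18) were nearest to Pfkp, and Slc9a3r1 (0.095), Themis2 (0.14) and Atp1b2 (0.16) to Eno3. The nearest genes of Ckm had log2 fold changes of -3.89, -3.84 and -3.60, and those of Eno3 had -1.11, -1.09 and -1.02. Fold changes close to that of the enzyme follow from this choice, since the centred profiles hold the group difference. No gene was among the 3 nearest of more than 1 enzyme, which between enzymes of unlike fold change follows from this choice as well.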

How the data were processed

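The deposited table holds linear signal intensity per probe set for 6 Affymetrix MOE430 arrays, 1 per sample, 3 per group by sample title. GCOS appears per the submitters' processing notes; which algorithm it ran is not given in the sources used here. Intensities deposited by the authors had a mean of 1500.01 on every array after trimming 2% at each end, so arrays had been scaled alike, and any difference in RNA per cell is lost. Medians differed 1.36-fold between arrays, and no 2 arrays shared more than 13 identical values. The number of arrays limits the precision.

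Of 45037 probe sets other than 64 controls, 34945 had 1 gene symbol in the platform annotation, 932 several and 9160 none. Values were turned into log2(signal + 25.0), the offset being their 20th percentile. A gene was represented by its brightest probe set and kept if its mean exceeded the lowest 40% of probe sets, which left 13464 of 18193 genes. Limma 3.58.1 (R 4.3.3) compared the groups (lmFit, eBayes with a variance trend, two-sided, Benjamini-Hochberg over all genes or all probe sets, threshold 0.05). The members and lists were chosen with earlier results of these data known. Named beside the members were the 3 genes of smallest p of each list, and all that passed where these were 5 or fewer; further list genes were picked with their values in view. The fit was tested on simulated data. It recovered 15 of 68 genes changed by 1 on the log2 scale, 42 of 66 changed by 2 and 60 of 66 changed by 4. It made 6 false calls. A gene that did not pass can therefore still have changed. The simulated noise was independent between genes, and fewer genes were changed there than were called in the data. The shares recovered need not hold for the real fit. Same-numbered arrays of the groups had correlations of deviations from the group means of 0.092, 0.025 and -0.065. With 3 arrays per group these cannot settle whether the numbers mark pairs. The main fit did not use the numbers, and a replicate block was run as an alternative. Alternatives covered normalization, offset, filter, choice of probe set, variance model, the replicate block and leaving out each array.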

Additional observations from a re-analysis of the deposited data

How the results depend on the processing

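Ckm, Ckb and Pfkp were lower and past the threshold in the gene fit under all 17 alternatives, with log2 fold changes of -4.12 to -1.92, -2.49 to -2.08 and -2.41 to -2.05. Eno3 was lower in all 17 and missed the threshold in 11 (adjusted p up to 0.189). Ldhb passed with array weights (-0.94) and without double-positive array 2. The member genes called lower numbered 3 to 5, and the member probe sets 5 with array weights, Eno3 and Ldhb being added. Genes of the 4 energy lists called lower numbered 4 with median centring, 5 with no filter and 5 with no variance trend, and 4 to 7 with 1 array left out. Those called higher numbered 1 with array weights and 0 to 1 with 1 array left out. With array weights, 910 genes were lower and 435 higher, and 1156 probe sets were lower and 483 higher; with no variance trend 163 probe sets were higher. With 1 array left out, 303 to 736 genes were lower and 160 to 348 higher, and 262 to 784 probe sets were lower and 123 to 337 higher. The low ends came without single-positive array 3 (303 and 262) and without double-positive array 1 (160 and 123).

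The Ckm to Ckb shift, -1.51 on the brightest probe sets, was -1.61 with an offset of 10 and -1.15 with an offset of 100. With probe sets averaged it was 0.35, where the second Ckm probe set enters. The other signs that turned were of values near 0. The Pfkm to Pfkl shift was -0.058 after quantile normalization and -0.15 to 0.19 with 1 array left out. Pfkl had -0.044 with probe sets averaged and -0.053 with array weights (-0.051 over probe sets), and -0.29 to 0.29 with 1 array left out, which its probe set 1439148_a_at shared. Pfkm had -0.027 with array weights (-0.024 over probe sets, 1416780_at) and -0.19 to 0.17 with 1 array left out. The dimmer Ckm probe set 1444643_at had 0.0078 after quantile normalization, 0.00049 with array weights and -0.29 to 0.20 with 1 array left out. Probe set 1453541_at of Pfkl had -0.10 to 0.17 with 1 array left out. For these values near 0 the cause was not tested.

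With the replicate number as a block, 690 genes were lower and 324 higher, 3 members were lower (Eno3 had an adjusted p of 0.0679), and it changed no other call among the members. In the paired sign-flip version of the isoform test the smallest p is 0.25, and 4 of 5 pairs reached it. Not every array correlated best with its own number. Probe sets below the filter, among them those of Ckmt2 and the dimmer ones of Pfkp, were not tested.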
